A study of Mus musculus with 12 samples.

Results

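Open chromatin was described here at 8 genes of the NF-kappaB pathway in mouse CD4 T cells: Rel, Rela, Relb, Nfkb1 and Nfkb2, which encode the DNA-binding subunits, and Nfkbia, Nfkbid and Tnfaip3, which encode inhibitors. Overlapping peaks (by 1 bp or more) from the 12 lists were merged. A merged region belonged to a gene if its midpoint lay in the gene body or, outside all bodies, if that gene's end was the nearest within 50 kb. These genes held 61 of the 76882 regions: Nfkb1 27, Tnfaip3 11, Nfkbia 10, Rel 7, Rela and Relb 2 each, and Nfkb2 and Nfkbid 1 each. Of the 61, 31 lay in gene bodies and 30 outside them.

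NF-kappaB proteins are dimers that bind a short DNA motif, the kappaB site. In resting T cells inhibitors of the IkappaB family hold most of them in the cytoplasm, and signals from the T cell receptor and costimulation release them. In mice c-Rel, the product of Rel, is needed for the normal development of regulatory T cells and binds the Foxp3 gene, and several inhibitors of the pathway are themselves its target genes.

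ATAC-seq, which cuts open chromatin with a transposase, was applied to Balb/c T cells in 6 groups of 2 libraries. T cells with the 6.5TCR, a receptor specific for HA, had been transferred into Aire-HA hosts, and bone marrow subsets were sorted on day 14. Donor Treg were donor cells that had converted to regulatory cells (CD45.2+ without CD45.1, positive for CD25 and LAP). Host pTreg and host tTreg were host regulatory cells (CD45.1+CD45.2+, CD25+CTLA4+) without and with Nrp1. iTreg were regulatory cells induced in culture, CD25+LAP+, with WT Balb/c in their library name. Donor Tconv were donor cells that had not converted (CD45.1-CD45.2+, CD25-), and host Tconv were CD45.1+CD45.2- CD25- host cells, titled WT but named Aire-HCO. The first 4 groups are called regulatory and the last 2 conventional. The labels do not say that the 2 libraries of a group came from separate animals. The p-values for width thus measure the spread between libraries, which may be technical. The exact tests of presence take each library as a unit and do not use the groups. A peak can also come from part of the sorted cells: fewer cells with an open site and a site less open in each cell cannot be told apart.

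The deposited lists held 28394 to 63207 peaks, most in iTreg. Read depth is unknown, so a missing peak was not taken as closed chromatin. The library names carry the run code BW13 for donor Treg, donor Tconv and host Tconv, DR31 for host pTreg and host tTreg, and none for iTreg, so group and run cannot be told apart across codes. They also hold a number of at most 17000 in the in vivo regulatory libraries and 42000 to 50000 in the others, which cannot be told apart from the group either. Of 6 T cell genes (Cd3e, Cd3d, Cd3g, Cd4, Lck, Cd5) 6 had a peak in every library. Cd8a had no peak in the in vivo regulatory libraries and 2 to 3 in each of the others. Cd8b1 had 1 region with a peak in each in vivo regulatory library except host tTreg 1, which had none, and 3 to 6 in each of the others. The myeloid gene Lyz2 had peaks in the iTreg libraries only, while the myeloid genes Itgam and Cebpe had peaks in every library. The 4 B cell genes held 13 to 16 regions with a peak in iTreg libraries and 2 to 7 in the others, and the 4 myeloid genes 13 to 14 and 4 to 12; Cd79a and Csf1r had none in any library. The part of these differences in the results below was not tested.

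The start sites are shown first because several hold the motif that the gene family binds. RefSeq windows from 250 bases before to 50 bases after a start site were at hand for 6 of the genes, 11 windows in all (build GRCm38.p6). Each of the 11 lay inside a merged region with a peak in all 12 libraries. Peaks covered 10 of the 11 windows in all 12 libraries, but Tnfaip3 start 2 only in 5 of 12 (donor Treg 2, host pTreg 1, host tTreg 2, donor Tconv 1 and host Tconv 2). The kappaB consensus, searched on both strands, occurred in 7 of the 11 windows and in 5 of the 6 genes, all but Rela. Of all 32851 RefSeq windows 4.51% held it, and of the 10833 windows inside a merged region of that kind 5.46%. The related form GGGNNTTTCC occurred in 6 of the 11 windows, each time overlapping a consensus match, against 1.63% of all windows and 1.74% of those in such regions. Windows 2 and 3 of Nfkb2 overlap and share a match. The unrelated GC box GGGCGG occurred in 8 of the 11, against 35.7% of all windows and 69.1% of those in such regions. These matches describe letters in a window. They do not show that a factor binds there. Below, 5 windows are printed 5′ to 3′ on the strand of the gene, with the bases matching the consensus in capitals. Rel lies at chr11:23770920-23771219 (minus strand), Nfkb2 start 1 at chr19:46304487-46304786 (plus), Nfkbia at chr12:55492598-55492897 (minus), Nfkbid start 2 at chr7:30422156-30422455 (plus) and Tnfaip3 start 1 at chr10:19015361-19015660 (minus).
Rel: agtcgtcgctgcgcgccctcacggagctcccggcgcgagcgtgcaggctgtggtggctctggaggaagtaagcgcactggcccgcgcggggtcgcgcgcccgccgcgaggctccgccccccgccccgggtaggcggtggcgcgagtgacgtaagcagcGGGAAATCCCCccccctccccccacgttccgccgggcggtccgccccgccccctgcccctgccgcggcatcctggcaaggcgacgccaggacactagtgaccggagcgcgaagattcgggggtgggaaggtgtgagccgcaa
Nfkb2 start 1: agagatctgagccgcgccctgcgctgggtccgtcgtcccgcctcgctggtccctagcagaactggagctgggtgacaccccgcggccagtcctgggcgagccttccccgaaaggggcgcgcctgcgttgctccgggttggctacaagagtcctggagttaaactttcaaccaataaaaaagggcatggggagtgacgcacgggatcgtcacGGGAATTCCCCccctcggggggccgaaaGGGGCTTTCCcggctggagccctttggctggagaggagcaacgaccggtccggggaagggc
Nfkbia: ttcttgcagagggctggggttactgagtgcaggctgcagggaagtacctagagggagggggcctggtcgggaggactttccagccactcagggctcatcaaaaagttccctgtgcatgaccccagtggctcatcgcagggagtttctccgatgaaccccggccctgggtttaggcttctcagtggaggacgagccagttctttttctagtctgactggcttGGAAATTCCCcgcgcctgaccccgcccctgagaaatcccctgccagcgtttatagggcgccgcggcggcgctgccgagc
Nfkbid start 2: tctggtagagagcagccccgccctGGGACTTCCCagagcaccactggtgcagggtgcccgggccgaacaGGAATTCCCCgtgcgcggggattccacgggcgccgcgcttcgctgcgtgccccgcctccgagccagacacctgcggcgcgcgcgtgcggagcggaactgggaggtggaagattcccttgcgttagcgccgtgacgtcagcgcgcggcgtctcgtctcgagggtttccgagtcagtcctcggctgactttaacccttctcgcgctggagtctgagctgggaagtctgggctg
Tnfaip3 start 1: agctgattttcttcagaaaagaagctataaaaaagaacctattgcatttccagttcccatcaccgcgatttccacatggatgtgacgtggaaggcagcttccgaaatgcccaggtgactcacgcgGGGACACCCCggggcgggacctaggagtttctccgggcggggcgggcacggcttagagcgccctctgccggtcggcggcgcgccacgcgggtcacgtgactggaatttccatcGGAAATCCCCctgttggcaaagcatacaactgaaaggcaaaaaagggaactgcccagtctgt

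In the Rel window 2 overlapping matches on the strand opposite to the printed one and 1 on the printed strand formed 1 run of capitals whose first base lay 92 bases before the start. Nfkb2 start 1 had separate runs starting 39 and 11 bases before the start. The Nfkbia match began 29 bases before the start. Nfkbid start 2 had runs 226 and 181 bases before it, and Tnfaip3 start 1 had runs 125 and 12 bases before it.

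Across the 8 genes, 25 of the 61 regions (41.0%) had a peak in all 12 libraries, against 27.9% of all 76882 regions. A further 8 had a peak in 1 library only. The 8 genes together had 34 and 37 regions with a peak in donor Treg, 38 and 35 in host pTreg, 32 and 37 in host tTreg, 49 and 50 in iTreg, 38 and 35 in donor Tconv and 34 and 40 in host Tconv. The iTreg libraries were above all others, and the other 5 groups overlapped. Over all regions the iTreg libraries were also above all others, with 74.8% and 81.5% of them, against 35.1% to 60.4%. Unlike at the 8 genes, both donor Tconv libraries (60.4% and 56.4%) then lay above every in vivo regulatory library (at most 47.8%).

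**Figure D1:**
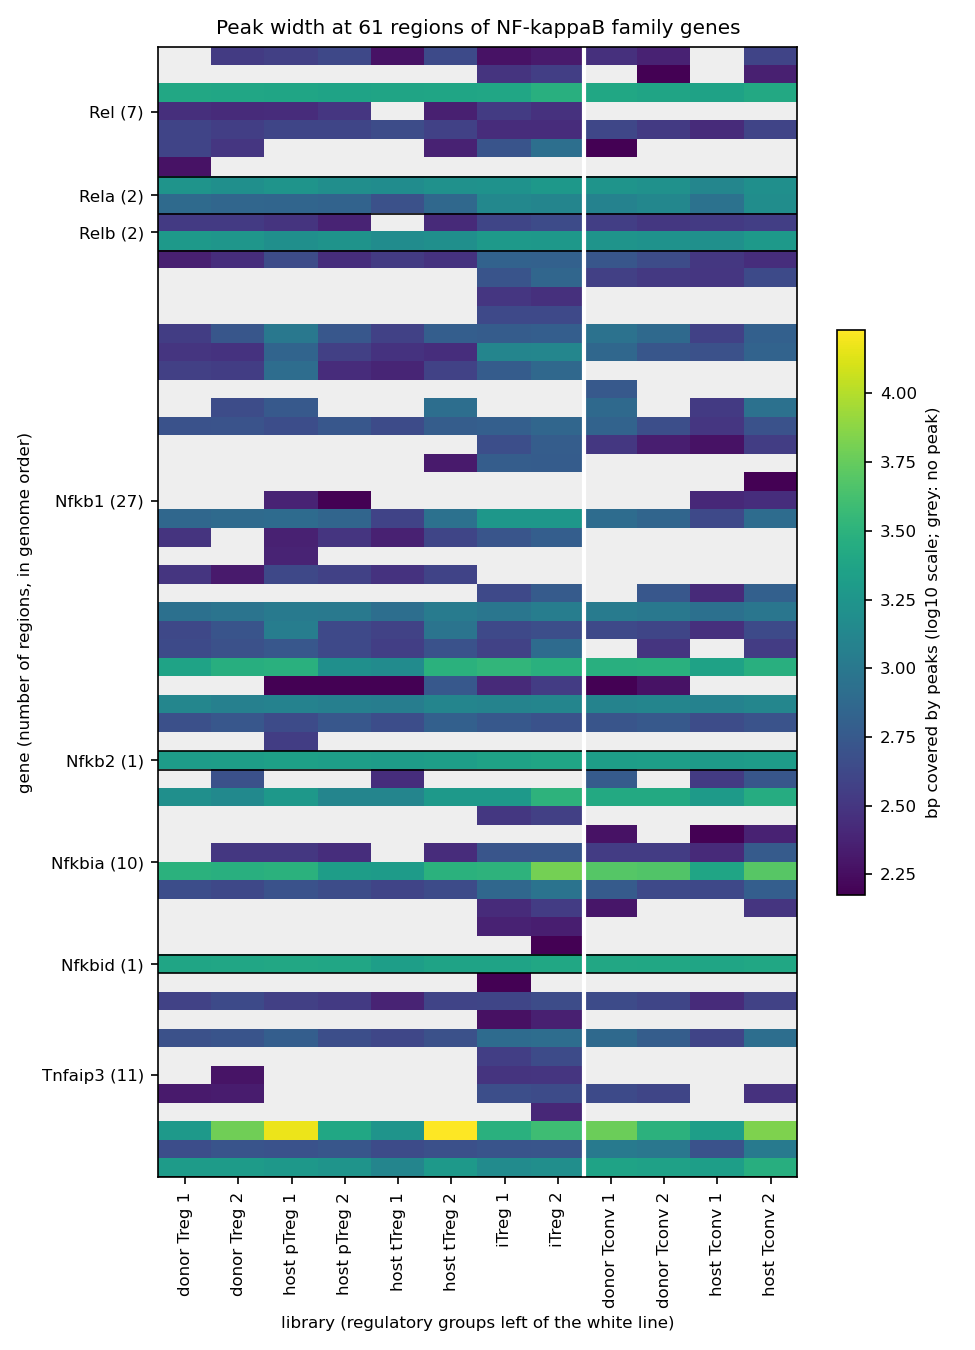
Base pairs covered by peaks (colour, log10 scale) in each of the 61 regions (rows, grouped by gene, in genome order) and 12 libraries (columns); grey means no peak. The 8 libraries left of the white line are regulatory and the 4 right of it conventional. Rows filled across are the 25 regions shared by all libraries, and the iTreg columns have the fewest grey cells, with 49 and 50 regions filled.

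Regulatory and conventional libraries were compared region by region with a two-sided Fisher's exact test, 8 against 4, adjusted over the 18887 regions of the genome that could reach an unadjusted p under 0.05. Of the 61 regions 13 could. One was called, at Nfkb1, with a peak more often in regulatory libraries; the background was 1.39% of all regions tested. No region of these genes was called in the other direction, where the background was 4.98%. At an unadjusted p under 0.05 the counts were 4 of 13 and 2875 of 18887. The median difference in the share of libraries with a peak, regulatory minus conventional, was -0.25 both over the 13 and over all tested.

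Nfkb1 encodes p105, the precursor of the subunit p50. Its body spans chr3:135584655-135691969, and 21 of its 27 regions lay inside it. A region of 3413 bp near the upper end of the body, chr3:135688640-135692052, had a peak in every library and was its widest. The number of Nfkb1 regions with a peak was 14 and 14 in donor Treg, 19 and 16 in host pTreg, 15 and 17 in host tTreg, 20 and 20 in iTreg, 15 and 15 in donor Tconv and 15 and 17 in host Tconv. Totals overlapped between regulatory and conventional libraries, but single regions inside the body did not.

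The called region, chr3:135604316-135605209, has its midpoint 20107 bp inside the body from its lower end. Peaks there covered 366 and 357 bp in donor Treg, 812 and 275 bp in host pTreg, 243 and 385 bp in host tTreg and 596 and 737 bp in iTreg, and no base in the 2 donor Tconv and 2 host Tconv libraries. All 8 regulatory libraries thus had a peak and none of the 4 conventional ones did (Fisher's exact test, two-sided, p = 0.00202, the smallest this design allows; adjusted p = 0.0317). These libraries come from 4 regulatory and 2 conventional groups, which the test does not take into account. The same 8 and 0 libraries were found at 263 regions of the genome. The call was lost on leaving out any single library other than iTreg 1, iTreg 2 or host Tconv 1, with adjusted exact p of 0.0519 to 0.0667 without each of the other 9; no region of the genome was then called. The call was also lost with peaks under 300 bp left out, a width that host pTreg 2 and host tTreg 1 do not reach here. It was lost with peaks required to cover at least 50% of the region, which 3 of the 8 regulatory libraries do. With a replicate block it was lost as well, but no region of the genome was called then, so that loss is not particular to this region.

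A second region inside the body, chr3:135640039-135640653, had 305 and 0 bp in donor Treg, 230 and 311 bp in host pTreg, 230 and 405 bp in host tTreg and 522 and 615 bp in iTreg, and no peak in conventional libraries. It was present in 7 of 8 regulatory libraries and did not pass the adjustment (adjusted p = 0.0996, Fisher's exact test). Another, chr3:135658716-135659132, was open in the in vivo regulatory groups alone. It had 313 and 210 bp in donor Treg, 417 and 375 bp in host pTreg and 300 and 391 bp in host tTreg, and no peak in iTreg, donor Tconv or host Tconv. Such a pattern occurred at 298 regions of the genome.

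At 2 further Nfkb1 regions the in vivo regulatory libraries were those without a peak. In chr3:135581517-135582238, 2778 bp outside the lower end, peaks covered 512 and 722 bp in iTreg, 367 and 330 bp in donor Tconv and 315 and 436 bp in host Tconv. In chr3:135621127-135621770, inside the body, they covered 464 and 604 bp in iTreg, 326 and 223 bp in donor Tconv and 188 and 352 bp in host Tconv. All 6 in vivo regulatory libraries lacked a peak at both, a pattern found at 2471 regions. With the 2 iTreg libraries left out, a choice made after seeing the data, Fisher's exact test called 2 regions of these genes more often open in regulatory libraries (chr3:135604316-135605209 and chr3:135658716-135659132) and 2 less often (the pair above). The backgrounds of that test were 3.35% and 21.5% of 17531 regions.

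**Figure D2:**
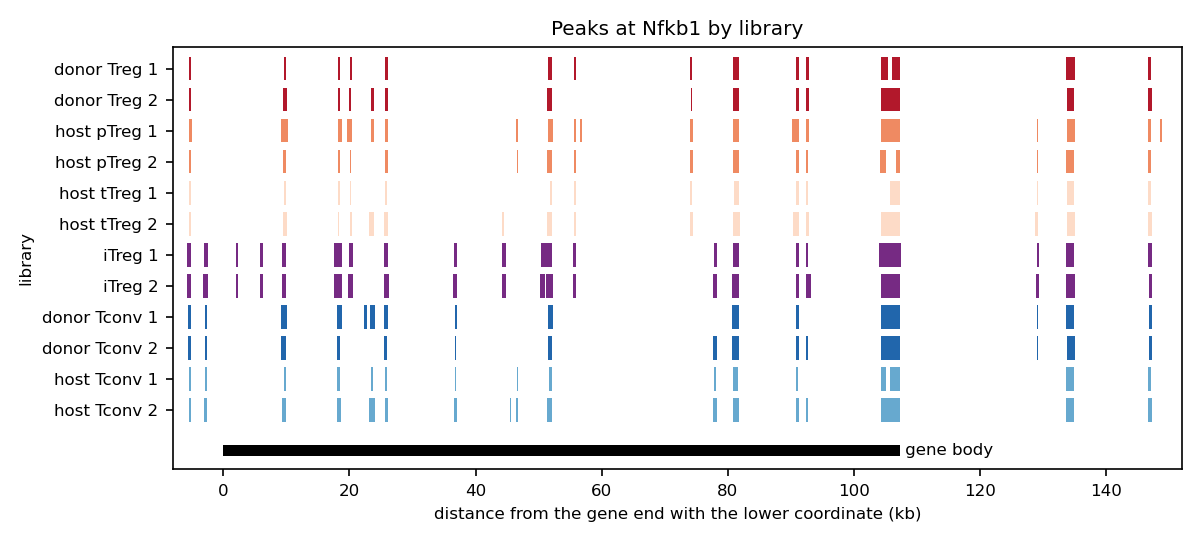
Peaks at and around Nfkb1 in the 12 libraries (rows, coloured by group), by distance in kb from the gene end with the lower coordinate; the black bar is the gene body and each coloured bar 1 peak. The 8 regulatory libraries in the upper rows have a peak near 20 kb that the 4 conventional libraries in the lower rows lack; near 37 kb and just below 0 the 6 in vivo regulatory libraries lack a peak that iTreg and conventional libraries have.

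Within run code BW13, donor Treg could be set against the 4 conventional libraries. Both donor Treg libraries but none of the 4 had a peak at 3 of the 49 regions of these genes with a peak there, against 2.11% of 53271 regions overall: the Nfkb1 regions at 135604316 and 135658716 and the Rel region described next. A peak in all 4 conventional libraries and neither donor Treg library was found at 2, the Nfkb1 regions at 135581517 and 135621127, against 10.2% overall.

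Rel encodes c-Rel. Its start lies in chr11:23769104-23772122, a region of 3019 bp in which peaks covered 2543 and 2486 bp in donor Treg, 2430 and 2359 bp in host pTreg, 2369 and 2406 bp in host tTreg, 2474 and 2984 bp in iTreg, 2517 and 2403 bp in donor Tconv and 2300 and 2623 bp in host Tconv. The iTreg 2 library was the widest, and the regulatory range otherwise overlapped the conventional one. The region chr11:23778676-23779066, with its midpoint 7902 bp upstream of the start, had peaks in regulatory libraries alone, but not in all of them. Peaks there covered 283 and 270 bp in donor Treg, 276 and 315 bp in host pTreg, 0 and 229 bp in host tTreg and 340 and 294 bp in iTreg, and nothing in donor Tconv or host Tconv. It was present in 7 of 8 regulatory and 0 of 4 conventional libraries, and did not pass the adjustment (p = 0.0101, adjusted p = 0.0996, Fisher's exact test).

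Farther upstream, chr11:23801702-23802546 (midpoint 31155 bp from the start) had 394 and 319 bp in donor Treg, 0 and 0 bp in host pTreg, 0 and 234 bp in host tTreg, 515 and 845 bp in iTreg, 150 and 0 bp in donor Tconv and 0 and 0 bp in host Tconv. Donor Treg and iTreg had a peak in both libraries, and 150 bp is the narrowest peak in any list. This set of libraries was found at 9 regions of the genome. Mixed sets had small counts elsewhere too: that of the Nfkb1 region chr3:135607725-135608682 was found at 1. Of the other Rel regions, 1 inside the body (chr11:23758412-23758774) was present in both iTreg, donor Tconv 2 and host Tconv 2, and 1 upstream in donor Treg 1 alone.

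Rela encodes p65, the partner of p50 in the most common dimer. It had 2 regions, both open in all libraries, so that only their width could differ. Width was compared with limma on log2 base pairs covered, each library centred on its median, over the 21435 regions with a peak in all 12 libraries, of which 25 belonged to these genes. Between regulatory and conventional libraries 2 of the 25 were wider, where the background was 7.5%, and 3 were narrower, where it was 8.47%. The median log2 difference, regulatory minus conventional, was 0.17 over the 25 and 0.03 over all 21435. Without centring the median over all was -0.14, and 14.2% of all calls were wider in regulatory libraries, against 47.0% with it; of the 25 regions 0 were then wider and 3 narrower, against 300 and 1814 of all 21435.

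Past the end of Rela opposite its start, chr19:5648327-5649861 had 770 and 710 bp in donor Treg, 703 and 674 bp in host pTreg, 481 and 746 bp in host tTreg, 1359 and 1294 bp in iTreg, 1232 and 1335 bp in donor Tconv and 898 and 1535 bp in host Tconv. Before centring, all 6 in vivo regulatory libraries lay below all 4 conventional ones, while iTreg lay among the conventional. Over all regions fitted, median log2 widths were also low in vivo, at 9.23 to 9.71 in regulatory and 9.55 to 9.93 in conventional libraries. The share of all regions that separates this way before centring is not given. After centring, the log2 difference of this Rela region was -0.45 (SE 0.10, limma adjusted p = 0.0143). The adjusted p was 0.0787 without donor Tconv 2 and 0.0585 without host Tconv 2. Without the iTreg libraries the difference was -0.58 (limma adjusted p = 0.00743). Within run code BW13 it was -0.50 for donor Treg against donor Tconv and -0.50 against host Tconv, neither past the limma threshold (adjusted p = 0.164 and 0.131).

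The Rela start region, chr19:5636397-5638508, had 1740 and 1582 bp in donor Treg, 1732 and 1543 bp in host pTreg, 1509 and 1657 bp in host tTreg, 1686 and 1882 bp in iTreg, 1752 and 1659 bp in donor Tconv and 1306 and 1598 bp in host Tconv. These widths overlapped, and it was the centring that set them apart: the log2 difference was 0.25 (SE 0.08, limma adjusted p = 0.0495) and 0.08 without centring (adjusted p = 0.571). That call was lost on leaving out any single library except host tTreg 2, with limma adjusted p of 0.0514 to 0.163. Without both iTreg libraries the difference was 0.33 (limma adjusted p = 0.0267).

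Relb and Nfkb2 encode the subunits of the slower, noncanonical arm of the pathway. The Relb region near the upper gene end, chr7:19628030-19630104, had 1498 to 1951 bp in regulatory and 1611 to 1920 bp in conventional libraries. Its second region was missing from host tTreg 1 alone. The single Nfkb2 region, chr19:46303915-46306351, covered 2047 to 2437 bp in regulatory and 1979 to 2134 bp in conventional libraries. Both ranges overlapped, and neither gene had a region past a test.

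Among the inhibitors, Nfkbia encodes IkappaB-alpha, which the pathway itself induces. Its start lies in chr12:55486862-55493202, a region longer than the 3239 bp gene. Peaks covered 3108 and 2996 bp in donor Treg, 3094 and 2092 bp in host pTreg, 2027 and 3085 bp in host tTreg, 3191 and 6341 bp in iTreg, 4894 and 4747 bp in donor Tconv and 2430 and 5027 bp in host Tconv. The 6 in vivo regulatory libraries stayed below 3 of the 4 conventional ones but not below host Tconv 1. The log2 difference was -0.26 (SE 0.17, limma adjusted p = 0.35). Within this region a separate peak over the lower gene end covered 1811 and 1706 bp in donor Tconv and 898 and 1930 bp in host Tconv. The 6 in vivo regulatory libraries and iTreg 1 had no peak there, and the 6341 bp peak of iTreg 2 spanned it. This difference was seen in the values and was not tested, and no share over all regions is given. At 27077 bp past the start, chr12:55463961-55467180 had 1589 and 1424 bp in donor Treg, 1864 and 1282 bp in host pTreg, 1297 and 1930 bp in host tTreg, 1930 and 3212 bp in iTreg, 2670 and 2678 bp in donor Tconv and 1995 and 2804 bp in host Tconv. Before centring, all 6 in vivo regulatory libraries were below all 4 conventional ones, and the share of all regions that separates this way is not given. The difference was -0.36 (limma adjusted p = 0.0686) over all regulatory libraries and -0.42 (adjusted p = 0.0173) without iTreg. Without iTreg limma called 3 of the 25 regions wider (background 8.57%) and 3 narrower (9.26%). The 3 wider ones were the Rela start, the Rel region 11245 bp before the start (0.47, adjusted p = 0.0344) and the Nfkb1 region chr3:135674798-135675976 (0.86, adjusted p = 0.0308). At the last, peaks covered 419 and 515 bp in donor Treg, 1111 and 430 bp in host pTreg, 381 and 932 bp in host tTreg, 424 and 466 bp in iTreg, 430 and 406 bp in donor Tconv and 291 and 434 bp in host Tconv. Host pTreg 1 and host tTreg 2 were high, and the other 4 in vivo regulatory libraries overlapped the conventional ones. Widths overlapped at the Rel region too before centring. Peaks there covered 359 to 448 bp in the 6 in vivo regulatory libraries, 411 and 336 bp in donor Tconv and 270 and 399 bp in host Tconv. Its difference of 0.47 was computed after centring.

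Nfkbia also held a narrow region with peaks in conventional libraries alone, chr12:55474288-55474521. It had 190 and 0 bp in donor Tconv and 150 and 234 bp in host Tconv, and no peak in 8 regulatory libraries (p = 0.0182, adjusted p = 0.119, Fisher's exact test). Nfkbid encodes IkappaBNS, a nuclear member of the inhibitor family that in mice takes part in the induction of Foxp3. Its single region, chr7:30421107-30423710, covers all 3 of its start windows and had 2139 to 2560 bp in regulatory and 2438 to 2568 bp in conventional libraries. No difference in width was called there.

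Tnfaip3 encodes A20, an enzyme that edits ubiquitin chains and so restrains the pathway. Its body of 14501 bp lay within chr10:18998941-19016206, the second-widest merged region of the genome (rank 2 of 76882). Peaks covered 1941 and 6133 bp in donor Treg, 14847 and 2526 bp in host pTreg, 1744 and 17073 bp in host tTreg, 3012 and 3904 bp in iTreg, 5939 and 3167 bp in donor Tconv and 2117 and 6811 bp in host Tconv. In host pTreg 1 and host tTreg 2 a single peak spanned the gene, covering 98.9% of its body in host pTreg 1 and 100% in host tTreg 2. It was the widest peak of the host tTreg 2 list and rank 3 in host pTreg 1. In host pTreg 2 and host tTreg 1 peaks covered 14.0% and 8.50% of the body, so the libraries of both groups were unlike each other. The log2 difference between regulatory and conventional libraries was 0.30 (SE 0.59, limma adjusted p = 0.765). Within the region a separate peak past the lower gene end covered 558 and 383 bp in donor Tconv, 320 and 739 bp in host Tconv and 431 and 424 bp in iTreg. Donor Treg, host pTreg and host tTreg 1 had no peak there, and the 17073 bp peak of host tTreg 2 spanned it. This difference was seen in the values and was not tested, and no share over all regions is given.

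**Figure D3:**
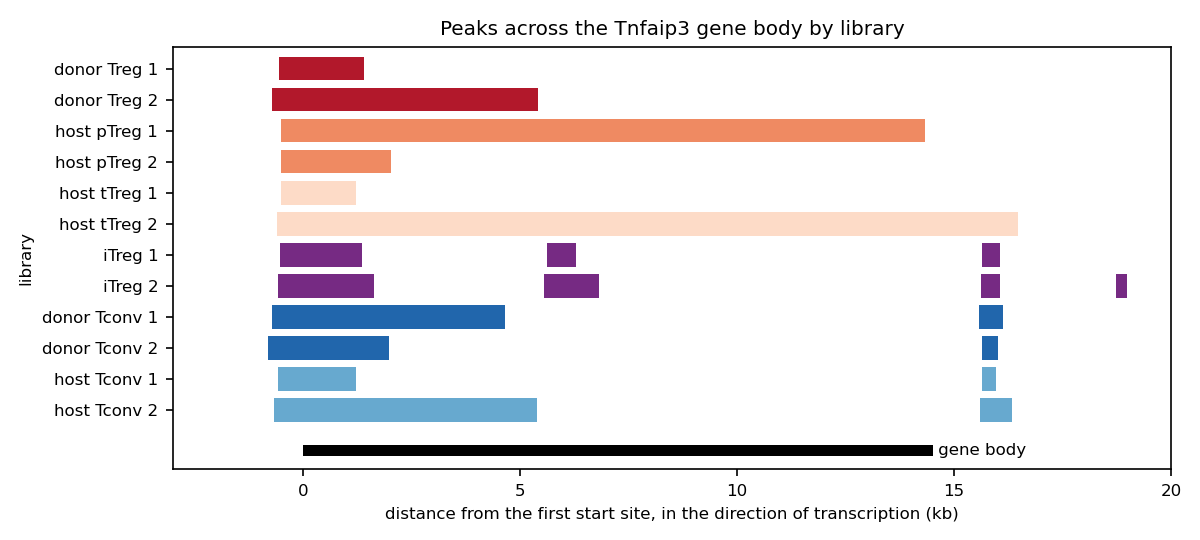
Peaks over the Tnfaip3 gene in the 12 libraries (rows, coloured by group), by distance in kb from the first start site in the direction of transcription; the black bar is the gene body. A single peak spans the body in host pTreg 1 (14847 bp) and host tTreg 2 (17073 bp), while in the other 10 libraries peaks cover 1744 to 6811 bp.

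Upstream of Tnfaip3, 2 regions were narrower in regulatory libraries. In chr10:19043297-19044347, with its midpoint 28412 bp before the start, peaks covered 458 and 510 bp in donor Treg, 499 and 535 bp in host pTreg, 440 and 473 bp in host tTreg, 510 and 518 bp in iTreg, 1042 and 977 bp in donor Tconv and 491 and 1050 bp in host Tconv. All 8 regulatory libraries lay between 440 and 535 bp, 3 of the 4 conventional ones had 977 to 1050 bp, and host Tconv 1 lay within the regulatory range. The log2 difference was -0.62 (SE 0.13, limma adjusted p = 0.00883). The call held without each of the 12 libraries in turn (adjusted p of 0.00146 to 0.0388) and without both iTreg libraries (adjusted p = 0.0331). For donor Treg against donor Tconv alone it was -0.77 (limma adjusted p = 0.086), and against host Tconv -0.40 (limma adjusted p = 0.36).

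In chr10:19061081-19064018, 47139 bp before the start, peaks covered 2006 and 2027 bp in donor Treg, 1861 and 1742 bp in host pTreg, 1285 and 1907 bp in host tTreg, 1476 and 1562 bp in iTreg, 2346 and 2269 bp in donor Tconv and 2142 and 2938 bp in host Tconv. Before centring, all 8 regulatory libraries were below all 4 conventional ones, and the share of all regions that separates this way is not given. The log2 difference was -0.32 (SE 0.07, limma adjusted p = 0.0145). It was -0.15 without the iTreg libraries (adjusted p = 0.247), and the call was lost without donor Tconv 1 (adjusted p = 0.0541) or donor Tconv 2 (0.0726). For donor Treg against donor Tconv it was 0.10 after centring (limma adjusted p = 0.663), so on the tested scale donor Treg was not the narrower.

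A last called width lay inside Nfkb1, chr3:135634916-135636923. Peaks covered 732 and 774 bp in donor Treg, 781 and 706 bp in host pTreg, 389 and 874 bp in host tTreg, 1839 and 1841 bp in iTreg, 795 and 706 bp in donor Tconv and 428 and 806 bp in host Tconv. Only iTreg stood apart. The log2 difference between regulatory and conventional libraries was 0.57 (SE 0.15, limma adjusted p = 0.0242), and 0.34 without the iTreg libraries (adjusted p = 0.179). The adjusted p was 0.0743 without donor Tconv 1, 0.0877 without donor Tconv 2 and 0.0936 without host Tconv 1. Without centring it was 0.41 (adjusted p = 0.277).

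Converted donor cells were set against unconverted ones, which share origin, receptor and run code. Of 47 regions of these genes with a peak in a donor library, 3 were carried by donor Treg 1 and 2 and by no donor Tconv library (6.38%, against 2.41% of all regions): the Rel region 7902 bp upstream and the Nfkb1 regions at 135604316 and 135658716. The reverse held at 3 (6.38%, against 19.9%), the Nfkb1 regions at 135581517, 135621127 and 135713318. With 2 libraries against 2 the smallest exact p is 0.333, so no test is given. Cutting all lists to equal length, which could not follow the constant peak score, changed the counts to 5 and 1 of 39, against 7.82% and 9.43% of all regions. Without donor Treg 2 they were 5 and 5, without donor Tconv 1 they were 4 and 5, and without donor Tconv 2 they were 4 and 6. No width was called by limma (0 wider and 0 narrower of 25, against 0.877% and 2.47%; 8 of the 25 regions had an unadjusted p under 0.05, or 32%, against 3644 of 21435, or 17%).

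Against host Tconv, which uses the same donor Treg libraries, donor Treg had 4 regions of their own (4.18% overall) and host Tconv 5 (12.8%) of 47. Without donor Treg 2 the counts were 6 and 8, and without host Tconv 1 they were 4 and 8. The donor Treg side held the same 3 regions and the Rel region 31155 bp upstream. Between donor Tconv and host Tconv 1 region of 43 lay on each side (backgrounds 4.4% and 0.557%), both at Nfkb1. Host pTreg had 1 and host tTreg 0 of 41 regions of their own (3.35% and 0.452%). Donor Treg against host pTreg gave 2 and 2 of 43 (2.09% and 4.33%), and against host tTreg 1 and 1 of 41 (3.53% and 1.4%). A Tnfaip3 region 24499 bp past the nearest start site, chr10:18987190-18987739, was on the donor Treg side both times: it had 211 and 217 bp in donor Treg and no peak in the 4 host regulatory libraries. It also had peaks in both iTreg, both donor Tconv and 1 host Tconv library. Leaving out 1 library moved these small counts too. They became 1 and 4 without donor Tconv 1, 3 and 2 without donor Tconv 2, 1 and 2 without host Tconv 1 and 3 and 1 without host Tconv 2 for donor Tconv against host Tconv. For host pTreg against host tTreg they became 3 and 0 without host pTreg 2, 1 and 2 without host tTreg 1 and 4 and 1 without host tTreg 2. Donor Treg against host pTreg gave 4 and 3 without donor Treg 1, 3 and 4 without donor Treg 2 and 2 and 4 without host pTreg 2. Against host tTreg it gave 2 and 2 without donor Treg 1 or 2, 1 and 2 without host tTreg 1 and 4 and 1 without host tTreg 2. Limma called no width of these genes in any of these 5 pairs. Of all 21435 regions it called 2.98% wider and 2.67% narrower in donor Treg than in host Tconv, 0.084% and 0.00467% in donor Tconv than in host Tconv, and 0.182% and 0.0327% in host pTreg than in host tTreg. In donor Treg it called 0.275% wider and 0.275% narrower than in host pTreg, and 0.597% and 0.191% than in host tTreg. At an unadjusted p under 0.05 there were 0 to 6 of 25 per pair, against 1324 to 4079 of 21435 over all regions.

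**Figure D4:**
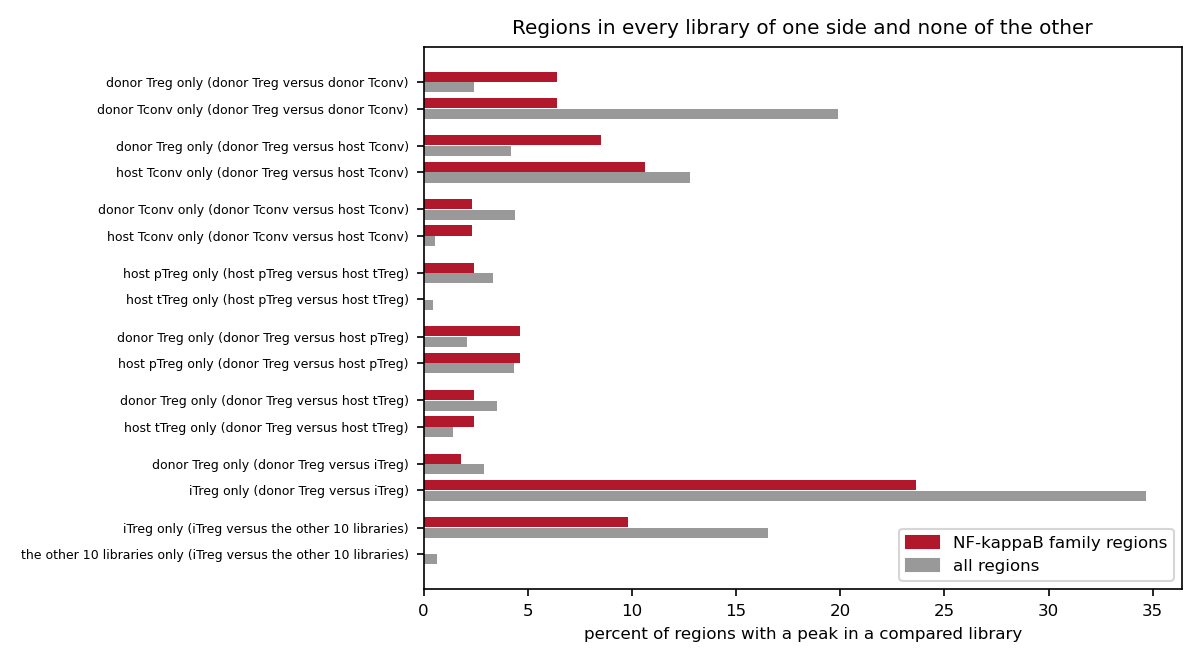
Share of regions with a peak in every library of one side and in none of the other, in percent of the regions with a peak in any compared library, for the NF-kappaB family regions (red) and all regions (grey); each label names the side and then the comparison. The family shares are counts of 0 to 13 regions; for donor Treg against donor Tconv they are 6.38% on both sides, against 2.41% and 19.9% of all regions.

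Donor Treg and iTreg, which differ in culture, run code and library number, differed most. Donor Treg had 1 region of their own, the Nfkb1 region at 135658716, and iTreg had 13, of 55 with a peak in either (1.82% and 23.6%, against 2.92% and 34.7% of all regions). Nfkb1 held 7 of the 13, Nfkbia 3, Tnfaip3 2 and Rel 1. Cutting all lists to equal length turned the counts to 5 and 3 of 41, against 12.6% and 13.9% of all regions. At full length they were 3 and 14 without donor Treg 1 and 2 and 16 without donor Treg 2. The iTreg libraries had 6 regions that none of the other 10 libraries carried (9.84% of 61, against 16.5% of all regions): 2 in the Nfkb1 body (at 135586626 and 135590507), 2 around Nfkbia (at 55472057 and 55508364) and 2 past Tnfaip3 (at 18959797 and 18967371). No region was carried by the other 10 libraries and missing from both iTreg, a pattern of 0.636% of all regions.

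In width, limma called 2 regions of these genes wider in donor Treg than in iTreg (background 8.26%) and 3 narrower (8.04%). Beside the Nfkb1 region at 135634916 (log2 difference -0.88, adjusted p = 0.0331), the region chr3:135602179-135603512 stood out inside Nfkb1. Peaks there covered 312 and 300 bp in donor Treg and 1303 and 1326 bp in iTreg, and 280 to 733 bp in the other libraries. The iTreg libraries were above all others, with a difference of -1.69 (SE 0.22, limma adjusted p = 0.000948). At chr3:135578858-135579643, outside the lower gene end, donor Treg had 227 and 277 bp and iTreg 665 and 657 bp. The difference was -0.98 (SE 0.23, limma adjusted p = 0.0188).

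Wider in donor Treg after centring were the Rel region chr11:23781991-23782438, 11245 bp before the start, and the Tnfaip3 region at 19061081. Peaks at the first covered 396 and 359 bp in donor Treg and 276 and 273 bp in iTreg, a difference of 0.87 (SE 0.19, limma adjusted p = 0.0133). At the second the difference was 0.82 (SE 0.12, limma adjusted p = 0.00182). Without centring these differences were 0.46 and 0.41 and did not pass (adjusted p = 0.12 and 0.17). The median of all regions was then -0.35 and the share of calls that were wider in donor Treg was 6.04%, against 50.7% with centring; 0 of the 25 regions were then wider and 4 narrower, against 255 and 3968 of all 21435. Calls at Nfkb1 135602179 and Tnfaip3 19061081 held without each of the 4 libraries in turn (adjusted p of 0.0078 to 0.0106 and of 0.0134 to 0.018). Those at Nfkb1 135578858 and 135634916 were lost without any of the 4 (0.0516 to 0.115 and 0.111 to 0.148). The Rel call was lost without donor Treg 1, iTreg 1 or iTreg 2 (0.0533 to 0.0887).

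**Figure D5:**
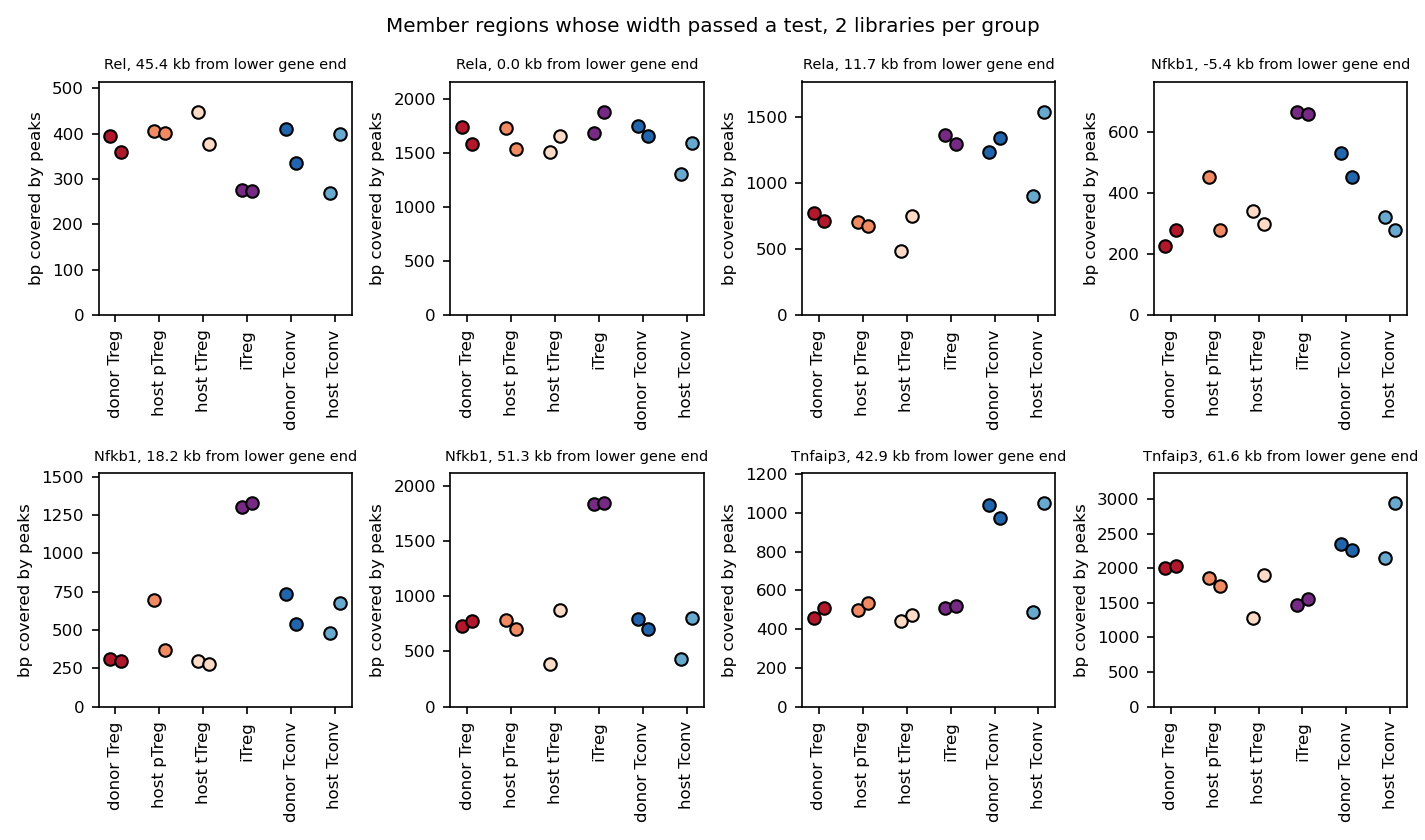
Base pairs covered by peaks in each library (points, 2 per group) at the 8 regions of these genes whose width passed a limma test in the fit of all 12 libraries (regulatory against conventional, or donor Treg against iTreg); each panel names the gene and the distance of the region's midpoint from the gene end with the lower coordinate. Values are as deposited, before centring. At Tnfaip3, 42.9 kb from that end, 8 regulatory libraries lie between 440 and 535 bp, and at Nfkb1, 18.2 kb, the iTreg libraries lie at 1303 and 1326 bp, above all others.

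Other genes of the pathway, 36 in number (kinases, adaptors, ubiquitin enzymes, further IkappaB proteins and target genes), held 222 regions, 89 of them (40.1%) open in all libraries. Of 52 that could be tested, Fisher's exact test called 2 more often open in regulatory libraries (3.85%, against 1.39% overall) and 8 more often in conventional ones (15.4%, against 4.98%). One of the 2 lay inside Traf1, which encodes an adaptor of TNF receptors. There, at chr2:34957597-34959079, peaks covered 1411 and 1458 bp in donor Treg, 1292 and 1346 bp in host pTreg, 1228 and 1435 bp in host tTreg and 1318 and 1408 bp in iTreg, and nothing in the 4 conventional libraries.

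The 8 in the other direction lay in Ikbkg (the regulatory subunit of the IkappaB kinase), Map3k14 (NIK, the kinase of the noncanonical arm), Tab3, Traf3, Prkcq (a kinase below the T cell receptor), Tnip1 (a partner of A20) and a second part of Traf1, and outside the body of Birc2. The widest, in Prkcq at chr2:11216114-11217431, had 1239 and 961 bp in donor Tconv and 898 and 1037 bp in host Tconv and no peak in regulatory libraries. Each of these 10 regions separated all 8 regulatory from all 4 conventional libraries (adjusted p = 0.0317, Fisher's exact test). Over the 52 regions the median difference in the share of libraries with a peak, regulatory minus conventional, was -0.44, against -0.25 over all tested. In addition 17 of the 222 (7.66%, against 16.5%) were carried by both iTreg libraries alone.

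Among 1636 genes with at least 10 regions, the number of regions with a peak per library was most like that of the 8 genes in Pde7b, a phosphodiesterase gene (Pearson r = 0.98 over 12 libraries), Notch2 (0.98) and Rora (0.97). Pde7b had 3 and 4 regions in donor Treg, 4 and 3 in host pTreg, 1 and 5 in host tTreg, 15 and 17 in iTreg, 6 and 5 in donor Tconv and 3 and 6 in host Tconv. The median r over the 1636 genes was 0.74, and the 8 genes reached 0.92 with the number of all regions, so list length is shared by these counts.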

How the data were processed

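The data are ATAC-seq peak lists of 12 libraries, 2 in each of 6 groups, grouped by the sample titles. The tools named per the submitters' processing notes are HOMER 4.10, Bowtie2 2.3.3 and bedtools, with the build mm10. What each tool did, the shift of reads for the transposase and the sets that were intersected are not given in the labels or other sources used here. The deposited values are peak coordinates and a score, which the authors' lists give as 1000 for every peak, so it was not used. Read depth is unknown and no counting interval can be given.

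Regions, genes (RefSeq, GRCm38.p6, which shares coordinates with mm10) and distances were computed with Python 3.11.15 and pandas 2.3.3. Exons and introns were not told apart. Coordinates count from 1. Presence was tested with scipy 1.17.1 (Fisher's exact test) and width with limma 3.58.1 in R 4.3.3 on 6 group means, both with Benjamini-Hochberg adjustment at 0.05 over all regions tested; a width is the bp of a region covered by a library's peaks. Both were run on simulated data as a check of the code. The simulated presence was drawn independently for each library, without the differences in list length of the real libraries. It does not show how the test behaves on such lists. Pairs of 2 libraries against 2 were counted only. Alternatives were equal list lengths, no peaks under 300 bp, peaks covering at least 50% of a region, gene bodies only, other scaling, regions averaging at least 500 bp, a replicate block and leaving out libraries. As the score is constant, the equal lists do not hold the strongest peaks by score. The order in which peaks were kept is not given here.

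All 8 genes were named, with every region past a test, every region that separated donor Treg from donor Tconv, and start-site regions; other regions with coordinates were chosen after their values were seen. Some items are not reported here. The members and lists were chosen with earlier results of these data known.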

Additional observations from a re-analysis of the deposited data

Results flagged for a closer look

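At 1 Nfkb1 region, chr3:135713318-135713917, donor and host cells went opposite ways. Peaks covered 0 and 0 bp in donor Treg and 150 and 188 bp in donor Tconv, so that donor Treg minus donor Tconv was -2 libraries with a peak. In the host they covered 150 and 150 bp in host pTreg and 150 and 554 bp in host tTreg, and 0 and 0 bp in host Tconv. The difference between donor and host was not tested. Of all 76882 regions 21 had opposite presence in donor and host in every library. Most of these peaks are at 150 bp, the narrowest width in any list, and the host regulatory libraries carry another run code than the rest; the part of either was not tested.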

How the results depend on the processing

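No width difference of a called region changed sign in the alternatives run. Counts of regions of the 8 genes on each side depended on how presence was defined. With equal list lengths they were, first group and second group, 5 and 1 for donor Treg against donor Tconv, 5 and 1 against host Tconv, 1 and 0 against host pTreg, 2 and 1 against host tTreg and 5 and 3 against iTreg, 2 and 1 for donor Tconv against host Tconv, 0 and 1 for host pTreg against host tTreg, and 2 and 1 for iTreg against the other 10 libraries. Without peaks under 300 bp they were 0 for regulatory against conventional, 2 and 1 for donor Treg against host Tconv, 1 and 0 against host pTreg, 2 and 0 against host tTreg, and 0 for host Tconv against donor Tconv and for host pTreg against host tTreg. With peaks covering at least 50% of a region they were 0 for regulatory, 5 for donor Tconv and 22 for iTreg against donor Treg, and for donor Treg 2 and 3 against host Tconv, 0 and 1 against host pTreg and 0 and 0 against host tTreg. In gene bodies only they were 1 for donor Tconv and 6 for iTreg against donor Treg, 2 and 3, 0 and 1, and 0 and 0 for donor Treg against host Tconv, host pTreg and host tTreg, 0 for donor Tconv against host Tconv and 2 for iTreg alone. Leaving out single libraries gave 0 to 1 call for regulatory against conventional; 4 to 5 and 3 to 6 for donor Treg against donor Tconv; 5 to 8 for host Tconv against donor Treg; 1 to 3 and 1 to 4 for donor Tconv against host Tconv; 1 to 4 and 0 to 2 for host pTreg against host tTreg; 2 to 4 and 2 to 4, and 1 to 4 and 1 to 2, for donor Treg against host pTreg and host tTreg; and 1 to 3 for donor Treg against iTreg. In width it gave 0 to 2 wider and 1 to 4 narrower for regulatory against conventional, and 1 to 2 wider and 1 narrower for donor Treg against iTreg. Without centring no region was wider (0 in both comparisons). Quantile normalization called 1 wider region in donor Treg against host Tconv, and regions averaging at least 500 bp left 1 wider against iTreg. Without iTreg, presence gave 2 and 2 calls. Without peaks under 300 bp, and with 50% cover, the cause of the changes was not tested.

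Equal replicate numbers did not deviate together (correlations of -0.18 to 0.14). With a replicate block presence gave 0 calls, both for these genes and over all regions of the genome. Width gave 1 wider region for regulatory against conventional and 1 narrower for donor Treg against host Tconv. The Rela start was then lost (limma adjusted p = 0.0631). Crossing the numbers for host pTreg against host tTreg and for donor Tconv against host Tconv left 0 called widths of these genes in each. Crossing the host Tconv numbers gave 1 narrower region for donor Treg against donor Tconv and 1 against host Tconv.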
